A study of Mus musculus with 7 samples.

Results

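The nuclear genes for the subunits of respiratory complexes I to IV were followed in 7 RNA-seq libraries of mouse hippocampus, a part of the forebrain needed to form memories. Members were taken by name: gene names of the Nduf series with the letters a, b, c, s or v, Sdha to Sdhd, names that begin with Uqcr, and the Cox4 to Cox8 series, without assembly factors or pseudogenes. This gave 67 of the 27583 genes in the table, and 65 of them had a median of at least 1 FPKM (fragments per kilobase of gene, scaled to 1e+06 mapped fragments), against 12052 genes in all. With Ndufa4 and Ndufa4l2 placed in complex IV, where the protein of Ndufa4 is found, complex I had 36 members, complex II 4, complex III 8 and complex IV 19. The name patterns leave out Cyc1 of complex III and Ndufab1 of complex I, which are given below with the other genes of the pathway.

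All 7 libraries came from male wild-type C57BL/6 mice, and titles give the strain as C57BL6/J. The stated design is a contrast of spinal cord injury with health. The labels of all samples are alike, none says which animal was injured and none gives an age, so no comparison of conditions was made and the libraries stand in 1 group as replicates 1 to 7. No label ties a library to an animal of its own, so a p-value over libraries reflects the spread among these samples alone, and that spread may be technical. Values are given as lowest, median and highest library.

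Replicate 5 stood apart before any member was examined. The 10 listed markers of striatal projection neurons summed to 1725 FPKM there and to 49.7 to 62.2 elsewhere, and 6 excitatory neuron markers to 752 there and to 1085 to 1450 elsewhere. In bulk RNA, fewer cells of a type and less RNA per cell cannot be told apart. Steps between low FPKM values gave depths of 37324418 to 38448101 fragments per library and the read count behind each value.

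The respiratory chain passes electrons from NADH (complex I) and succinate (complex II) through ubiquinone to complex III, then by cytochrome c to complex IV, where oxygen is reduced. Complexes I, III and IV pump protons, and the gradient drives ATP synthesis by complex V. Neurons depend on this supply for ion pumping and synaptic transmission. Complexes I, III and IV are built from subunits of both the mitochondrial and the nuclear genome, while complex II is nuclear throughout, and complex IV has alternative nuclear subunits that differ between tissues.

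Complex IV genes stood highest. The median over its 17 members of at least 1 FPKM was 149 to 192 FPKM by library, or 341 to 423 over the 12 that are not minor isoforms. The complex III median was 123 to 163 FPKM, that of complex I 84.5 to 105 and that of complex II 83.3 to 101. Complex IV exceeded complex III in 7 of 7 libraries, by 1.07 to 1.40 times. With Cox8b and Cox7b2 included, that is with no filter, it did so in 5 of 7, at a median of 1.03 times. Complex III exceeded complex I in 7 of 7, by 1.31 to 1.61 times. Complexes I and II could not be ranked: their ratio was 0.912 to 1.01, with complex II higher in 1 of 7 libraries. The medians describe the members and carry no test.

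**Figure D1:**
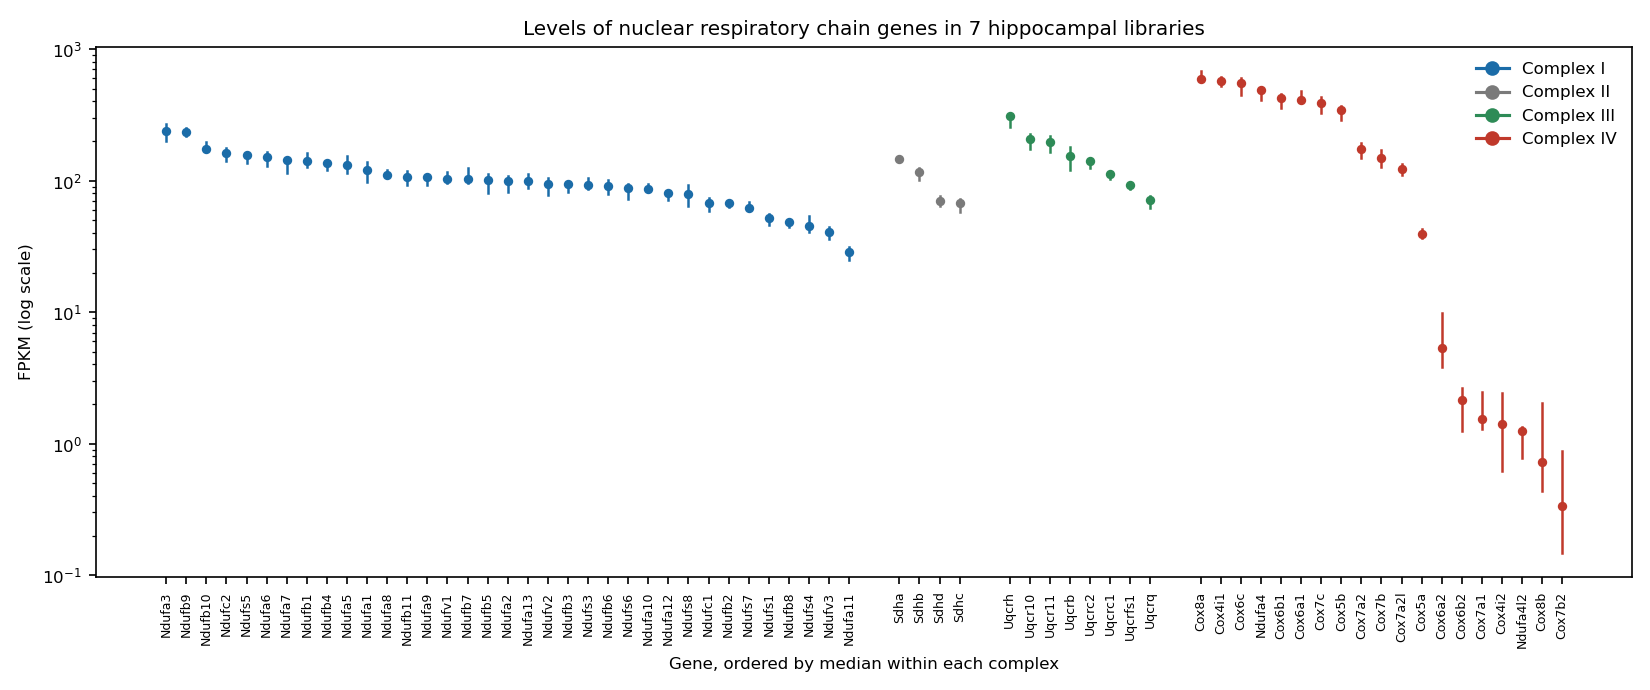
FPKM (log axis) of the individually reported genes, ordered by median within each complex; points are medians over 7 libraries and bars run from the lowest to the highest library. Of the complex IV genes, 12 lie between 39.4 and 590 FPKM and 7 minor isoforms lie at 5.30 or below, while the members of the other complexes lie between 28.9 and 309.

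In complex I, the 7 core genes encode the catalytic subunits that carry flavin and iron-sulfur clusters and are conserved from bacteria. Their medians lay within 2.01 times of each other. Ndufv1, which encodes the flavin-bearing subunit that binds NADH, had 95.5 FPKM in the lowest library, 104 at the median and 115 in the highest. Ndufs1, which encodes the large iron-sulfur subunit, had 45.8, 51.7 and 55.3. Ndufs3 (86.0, 93.3 and 104) lay close to Ndufv2 (78.4, 94.7 and 105), which encodes an iron-sulfur subunit of the NADH-oxidising arm. Ndufs7 (58.2, 61.7 and 69.0) and Ndufs8 (63.9, 79.5 and 92.4), which encode the iron-sulfur subunits next to the quinone site, lay between Ndufs1 and both of these. Each of the 7 was lowest in replicate 4, as were 20.1% of all genes and 16.6% to 47.4% of those in the length classes (of 10 in all) that hold these genes.

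The 29 accessory genes of complex I covered a wider range, 8.29 times between the highest and the lowest median. Ndufa3 was highest (202, 239 and 271 FPKM), followed by Ndufb9 (220, 234 and 250), both subunits of the membrane arm. Ndufa11 (24.7, 28.9 and 31.5), which sits at the membrane, and Ndufv3 (35.9, 40.8 and 44.3) were lowest. Ndufs8 of the core set and Ndufa1, a small membrane-arm subunit on chromosome X, varied most in complex I, by 1.45 and 1.41 times between the lowest and highest library. Ndufb2 varied least, by 1.12 times. Without replicate 5, Ndufs8 was unchanged at 1.45, Ndufa1 had 1.30, less than the 1.34 of Ndufa3, and Ndufb9 at 1.11 varied least.

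Part of the order of levels goes with the gene length that the authors used. Ndufa11 had 2532 to 3203 reads per library, close to the 2685 to 3549 of Ndufa3, but its length was 2661 bases against 351. The median GENCODE M21 coding transcript of Ndufa11 is 545 bases long, and at that length its median would be 141 FPKM. Cox5a, at 36.5, 39.4 and 42.7 FPKM the lowest complex IV gene outside the minor isoforms, has a length of 3153 bases in the table and a coding transcript of 645, at which its median would be 193. Uqcrq, at 61.7, 71.2 and 76.5 the lowest complex III gene, would have 215. Other genes would be lower: Ndufb4 at 70.5 against 136, Sdhc at 43.9 against 67.5 and Ndufb2 at 23.5 against 67.0. For Sdhc (815 and 3171 bases) and Ndufb2 (455 and 4371 bases) the median lies midway between 2 transcripts of unlike length. Over the 60 members that are not minor isoforms and have at least 1 FPKM, log2 level and log2 length correlated with r = -0.65 and rho = -0.67. This is a description across genes, which share libraries and are not independent replicates. With the GENCODE lengths, an alternative chosen after seeing the data, complex III stood 1.73 times and complex IV 1.95 times above complex I, and complex II lay below complex I in 7 of 7 libraries, at 0.882 times.

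Complex II oxidises succinate in the citric acid cycle and is the smallest of the 4. Sdha, the flavoprotein gene (mm10, chromosome 13, 74322254 to 74350280, minus strand), had 141 FPKM in the lowest library, 146 at the median and 153 in the highest. Sdhb, the iron-sulfur subunit gene, had 101, 117 and 125. The membrane anchor genes Sdhc (58.1, 67.5 and 72.2) and Sdhd (64.1, 70.6 and 77.0) lay below both in each library. Sdha varied by 1.08 times, less than any other member, and was the only member highest in replicate 4, where Sdhb and Sdhd were lowest.

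In complex III, Uqcrh, which encodes the hinge subunit next to cytochrome c1, was highest (255, 309 and 318 FPKM), followed by Uqcr10 (174, 206 and 226) and Uqcr11 (165, 198 and 218), both small subunits. Uqcrc1 (103, 111 and 118) and Uqcrc2 (125, 141 and 148) encode the large core proteins. Uqcrfs1, which encodes the Rieske iron-sulfur protein, varied little (86.5, 92.3 and 93.6, or 1.08 times). Uqcrb, which encodes a subunit that binds ubiquinone, had 121 in replicate 4, 153 at the median and 181 in replicate 5. Its ratio of 1.49 was the largest outside the minor isoforms with all libraries. Without replicate 5 it was 1.35, below the 1.45 of Ndufs8. Cyc1, which encodes cytochrome c1 itself, had 76.0, 79.7 and 87.9.

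In complex IV, 3 mitochondrial genes encode the catalytic core and the nuclear members encode the subunits around it. Cox8a (569, 590 and 680 FPKM) and Cox4i1 (525, 569 and 615) were highest, followed by Cox6c (449, 556 and 604) and Ndufa4 (411, 490 and 511). Cox5b (287, 343 and 367), which binds zinc, lay above Cox7a2 (149, 175 and 192) and Cox7b (127, 147 and 170). The mitochondrial genes stood far above these: the 3 of complex IV summed to 14202 to 20121 FPKM, against 3844 to 4486 for the 19 nuclear genes, and the 7 of complex I to 19081 to 27187, against 3393 to 4016 for the 36 nuclear genes.

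**Figure D2:**
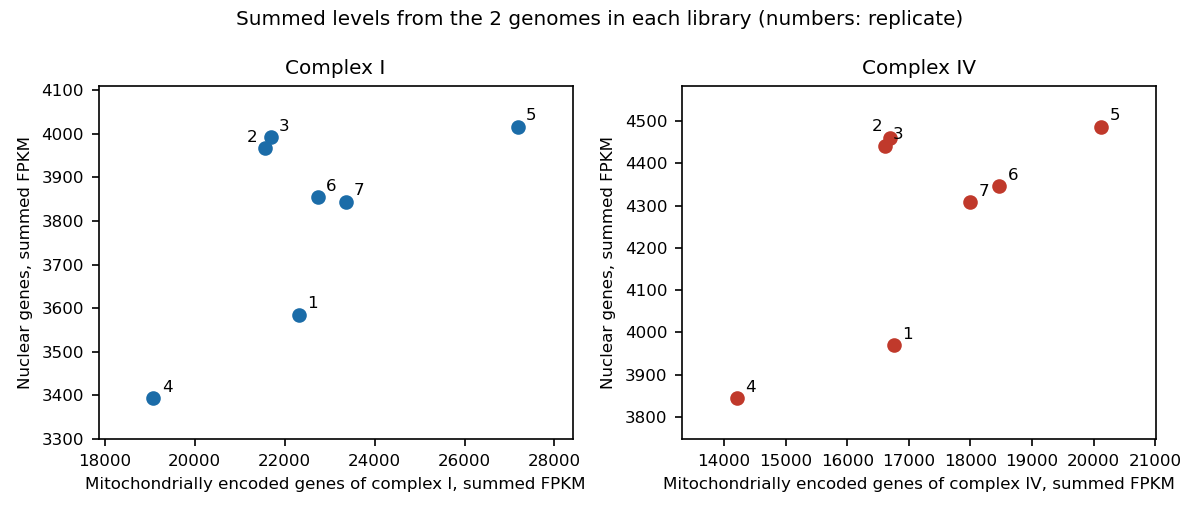
Summed FPKM of the nuclear genes (vertical axis) and of the mitochondrially encoded genes (horizontal axis) of complex I (left) and complex IV (right), 1 point per library, numbered by replicate. Both axes start above 0. Replicate 4 is lowest on both axes in both complexes and replicate 5 highest. Replicate 1 has the second lowest nuclear sum, and replicates 2 and 3 have the highest nuclear sums after replicate 5, with mitochondrial sums below those of replicates 6 and 7.

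Tissue isoforms were expressed almost exclusively in their ubiquitous form. In 7 of the 8 pairs compared, the alternative form made up 0.0765% to 2.12% of the summed FPKM of its pair. The difference had the same direction in 7 of 7 libraries in each of the 8 pairs, and the exact two-sided sign-flip permutation test on log2(FPKM + 1) gave p = 0.0156 for each, the smallest that 7 libraries allow (Benjamini-Hochberg adjusted p = 0.0156 over the 8 pairs). A ninth pair, Cox8a with the testis form Cox8c, was not analysed here because the table has no row of that name.

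**Figure D3:**
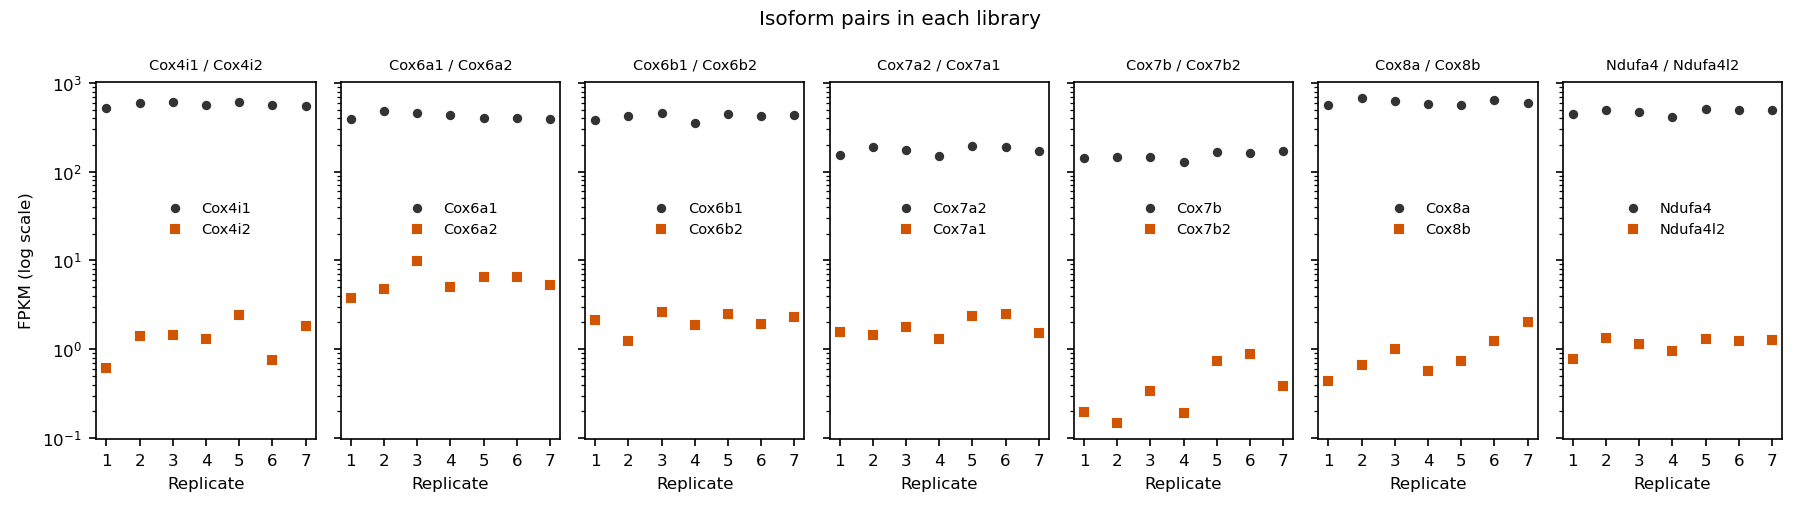
FPKM (log axis) of the ubiquitous form (circles) and the alternative form (squares) of 7 isoform pairs in each of the 7 libraries. The circles lie between 127 and 680 FPKM and the squares between 0.148 and 9.94, and the forms of a pair do not overlap in any pair.

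Cox6a2, the heart and skeletal muscle form of Cox6a, was the most abundant alternative form. It had 3.80, 4.80, 9.94, 5.05, 6.52, 6.45 and 5.30 FPKM in replicates 1 to 7, from 95 to 250 reads. The gene lies on chromosome 7, 128205435 to 128206387, minus strand. Replicate 3 stood above the others, with a 95% counting interval of 220 to 283 reads against 138 to 189 in the next highest, replicate 5. Cox6a1, the ubiquitous form, had 394, 408 and 481, so Cox6a2 made up 0.952% to 2.12% of the pair and Cox6a1 was higher by a mean of 5.97 on log2(FPKM + 1). Cox6a2 is also known from parvalbumin interneurons of the mouse brain. Pvalb, their defining marker, ranged from 26.4 to 35.2 FPKM. The list of 6 markers used for them also holds Gad1, Gad2 and Slc32a1, which mark all GABAergic neurons. Its sum was lowest in replicate 3 (142), where Cox6a2 was highest. The sum was highest in replicate 5 (233), where striatal markers were high, so it does not follow these cells alone. On the list, Syt2 was also lowest in replicate 3 (2.96 FPKM), while Kcnc1 had 17.3 there, in a range of 14.1 to 17.7. The part of these cells in the Cox6a2 values was not tested.

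The other muscle forms, Cox7a1 and Cox8b, were low. Cox7a1 had 1.55, 1.46, 1.77, 1.30, 2.36, 2.47 and 1.54 FPKM in replicates 1 to 7, from 23 to 43 reads, while Cox7a2 had 149 to 192. The counting intervals of the lowest (14.6 to 34.5 reads) and highest (31.1 to 57.9) libraries overlap. Of 9 markers of skeletal and heart muscle, 1 (Acta1, at 2.70 to 3.46) had a median of at least 1, the list summed to 3.69 to 5.32, and Ckm and Actc1 were listed at 0 in 6 of 7 libraries. Cox8b had 0.436, 0.664, 1.01, 0.573, 0.730, 1.24 and 2.02 FPKM, from 6 to 28 reads, while Cox8a had 569 to 680. Its interval was 18.6 to 40.5 reads in replicate 7 and 2.20 to 13.1 in replicate 1. Choroid plexus markers were also highest in replicate 7: the 10 listed genes, of which 5 had a median of at least 1 and none was at 0 throughout, summed to 82.1, 117, 1017, 79.8, 143, 345 and 1326 FPKM in replicates 1 to 7. Most of this sum was Ttr, at 1073 FPKM in replicate 7 and 822 in replicate 3. Summed markers of oligodendrocytes (1799, against 967 to 1665 elsewhere) and of pericytes (79.9, against 64.4 to 78.4) were also highest in replicate 7. Of single pericyte markers, Rgs5 was highest there, Higd1b in replicate 5 and Kcnj8 in replicate 2. The sums of the other marker lists were highest in other libraries. The part of these lists in the Cox8b values was not tested.

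Cox4i2, a form known from lung and from oxygen-sensing cells, had 0.616, 1.40, 1.44, 1.29, 2.41, 0.763 and 1.81 FPKM in replicates 1 to 7, from 17 to 66 reads. Replicate 5 was highest, with an interval of 51.0 to 84.0 reads, and replicates 1 and 6 lowest, at 9.90 to 27.2 and 13.0 to 32.1. Cox4i1 was 253 to 852 times as high. Ndufa4l2, a relative of Ndufa4, is induced by hypoxia and marks pericytes in brain. It had 0.778 FPKM in replicate 1, a median of 1.24 and 1.35 in replicate 2, from 34 to 58 reads. Its exons overlap those of Shmt2 on the opposite strand, and reads of Shmt2 cannot be told apart here. The other 7 pericyte markers on the list summed to 63.6 FPKM in replicate 1, the lowest, and to 67.1 to 78.6 elsewhere, with 5 of the 7 at a median of at least 1 and none at 0 throughout. Single markers did not all follow this sum: Rgs5 was lowest in replicate 5, Higd1b in replicate 2 and Kcnj8 in replicate 6. The part of these markers in the Cox4i2 or Ndufa4l2 values was not tested.

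The testis forms Cox6b2 and Cox7b2 were low. Cox6b2 had 1.24 FPKM in the lowest library, 2.13 at the median and 2.64 in the highest, against 357 to 458 for Cox6b1. Cox7b2 had 0.194, 0.148, 0.338, 0.192, 0.732, 0.876 and 0.387 FPKM in replicates 1 to 7, from 3 to 18 reads, against 127 to 170 for Cox7b. With counting intervals of 0.619 to 8.77 reads in replicate 2 and 10.7 to 28.4 in replicate 6, the lowest and highest libraries of Cox7b2 do not overlap in counting error. The eighth pair was of another kind. Cox7a2l encodes a factor reported to join complexes III and IV into supercomplexes, and its allele and activity in this strain were not examined. It had 110, 123 and 133 FPKM, and Cox7a2 exceeded it by 1.30 to 1.55 times, or by a mean of 0.50 on log2(FPKM + 1).

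Promoters were available for both forms of 4 of these 7 pairs. The 2 pairs with the largest difference in CpG dinucleotides, which are frequent in promoters of broadly expressed genes, are shown, a choice made after their values were seen. Each sequence is the 250 bases before the start of transcription, 5′ to 3′ on the gene's strand, from RefSeq on GRCm38.p6, with CpG in capitals. Cox8a lies at chr19:7217617-7217866 and Cox8b at chr7:140900447-140900696, both on the minus strand, Cox7a2 at chr9:79759854-79760103 on the minus strand and Cox7a1 at chr7:30183921-30184170 on the plus strand.
Cox8a: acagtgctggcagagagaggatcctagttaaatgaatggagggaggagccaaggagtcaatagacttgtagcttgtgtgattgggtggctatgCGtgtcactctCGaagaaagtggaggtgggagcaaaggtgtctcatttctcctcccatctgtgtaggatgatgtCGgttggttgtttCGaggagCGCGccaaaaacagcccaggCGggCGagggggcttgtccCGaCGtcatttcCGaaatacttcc
Cox8b: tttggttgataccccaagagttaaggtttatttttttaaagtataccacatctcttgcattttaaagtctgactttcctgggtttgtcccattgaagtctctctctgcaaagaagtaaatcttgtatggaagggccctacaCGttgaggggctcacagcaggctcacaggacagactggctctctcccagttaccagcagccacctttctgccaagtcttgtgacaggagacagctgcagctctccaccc
Cox7a2: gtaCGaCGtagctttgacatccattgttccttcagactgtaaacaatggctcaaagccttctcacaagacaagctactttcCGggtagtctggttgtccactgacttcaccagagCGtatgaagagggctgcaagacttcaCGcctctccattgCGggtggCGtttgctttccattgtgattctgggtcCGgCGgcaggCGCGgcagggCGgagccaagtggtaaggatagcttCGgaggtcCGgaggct
Cox7a1: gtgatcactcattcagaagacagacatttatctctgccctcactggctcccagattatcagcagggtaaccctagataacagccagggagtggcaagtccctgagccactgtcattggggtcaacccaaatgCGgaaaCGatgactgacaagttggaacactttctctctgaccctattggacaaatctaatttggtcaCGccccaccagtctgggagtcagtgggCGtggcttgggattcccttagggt
Cox8a has 11 CpG and Cox8b 1, and Cox7a2 has 14 and Cox7a1 4. The ratio of observed to expected CpG was 0.676 and 0.0726 in the first pair and 0.751 and 0.244 in the second. In Cox6b1 and Cox6b2 it was 0.768 and 0.430, with 14 and 8 CpG. The fourth pair ran the other way: the ubiquitous Cox7b had 0.431, with 5 CpG, and the testis form Cox7b2 had 0.567, with 9. The median was 0.75 over the 52 promoters of all members other than minor isoforms, those of Cox8a and Cox7a2 included, 0.723 over the 12330 promoters of genes with a median of at least 1 FPKM and 0.374 over all 32851. Promoters were found for 54 of the 67 members, some with more than 1 start.

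Promoters of some members hold motifs of regulators known to act on respiratory chain genes. Cox6a1, at chr5:115348959-115349208 on the minus strand, and Sdhd are shown in the same form, with capitals for matches to the NRF1 motif (the letters GCGC, any base, then TGCGC) and the ETS motif CCGGAAG, which GABP binds, on either strand.
Cox6a1: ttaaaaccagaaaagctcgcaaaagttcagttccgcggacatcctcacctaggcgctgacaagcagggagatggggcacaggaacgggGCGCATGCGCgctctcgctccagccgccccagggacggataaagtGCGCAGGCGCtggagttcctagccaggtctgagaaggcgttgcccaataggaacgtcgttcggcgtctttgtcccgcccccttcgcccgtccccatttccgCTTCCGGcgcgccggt
Sdhd: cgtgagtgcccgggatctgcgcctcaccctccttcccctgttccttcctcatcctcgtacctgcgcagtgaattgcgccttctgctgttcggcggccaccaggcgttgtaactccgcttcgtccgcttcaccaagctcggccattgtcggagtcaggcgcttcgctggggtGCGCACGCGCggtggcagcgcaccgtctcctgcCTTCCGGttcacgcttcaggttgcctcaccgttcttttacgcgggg
In Cox6a1 the NRF1 matches begin 162 and 117 bases and the ETS match 16 bases before the start, and in Sdhd they begin 79 and 46 bases before it. In the 300 bases from 250 before to 50 after the start, 11 of 54 members (20.4%) held the NRF1 motif, against 11.6% of 9556 genes with a median of at least 1 FPKM and 5.19% of all 27025 genes. The ETS motif was found in 11 members (20.4%), against 19.7% of the genes of at least 1 FPKM, a share close to that background. The YY1 motif AAGATGGCG was found in 5 (9.26%, against 3.67%) and the estrogen-related receptor motif TGACCTTG in 2 (3.70%, against 1.23%). The TATA motif TATAAA was found in 6 (11.1%), against 8.37% of the genes of at least 1 FPKM and 15.7% of all genes. These 6 include Cox7b2 and Cox8b, of the 4 minor isoforms with a promoter. The NRF1, ETS, YY1 and estrogen-related receptor motifs were found in 0 minor isoforms. None of these motifs contains another, each was searched on both strands, and a match is a description of sequence and not a bound site.

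Few members varied widely between libraries. In all, 5 of the 65 members (7.69%) had a highest library at least 1.5 times the lowest, against 24.5% of all genes of at least 1 FPKM, and these 5 were Cox4i2, Cox6a2, Cox6b2, Cox7a1 and Ndufa4l2. The 60 others had ratios of 1.08 to 1.49. Their coefficient of variation over libraries was 2.91% to 13.2% with a median of 7.53%, and counting error, from 1400 to 17944 reads per library, was 0.776% to 2.49%, so the variation was more than 2 times the counting error in 60 of 60. In the 7 minor isoforms it was above counting error in 7 but more than 2 times it in 2 only. The median SD on log2(FPKM + 1) was 0.11 over the members and 0.12 over all genes. The median ratio of highest to lowest library was 1.25 over the members and 1.31 over all genes. The members thus differed from all genes mainly in the share past 1.5 times, and hardly in the median ratio or the SD. A low share was not particular to them: it was 0 of 18 in complex V and 0 of 74 in cytosolic ribosomal protein genes. Among mitochondrially encoded genes it was 4 of 13. Levels also differed, with a median of 106 FPKM over the members and 8.33 over all genes. The part of level in the share was not tested.

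The small differences that remained were shared. Of the 65 members, 50 were lowest in replicate 4, against 20.1% of all genes, and 12 in replicate 1, against 9.06%, so 62 were lowest in either, against 29.1%. Of the rest, 2 were lowest in replicate 7 (background 7.64%) and 1 in replicate 2 (background 16.8%). None (0) was lowest in replicate 3 (background 10.7%), replicate 5 (background 26%) or replicate 6 (background 9.76%). The highest library was replicate 3 for 24 members (background 15.1%), replicate 5 for 19 (background 21.1%) and replicate 2 for 12 (background 11.7%). It was replicate 6 for 6 (background 14.4%), replicate 7 for 2 (background 12.9%), and replicates 1 (background 9.08%) and 4 (background 15.6%) for 1 each. In replicate 4 the median member stood at 0.867 times its median over the other 6 libraries, or -0.21 on the log2 scale, while the median gene stood at 0.990 times. In replicate 1 the median member stood at 0.935 times. Replicate 4 also had the highest summed FPKM of excitatory neuron markers (1450, against 752 to 1414 elsewhere) and of smooth muscle markers (24.1, against 10.8 to 19.9), with 6 of 6 and 4 of 5 listed genes at a median of at least 1. It had the lowest of microglia (135, against 138 to 173, 6 of 6 genes) and of choroid plexus (79.8, against 82.1 to 1326, 5 of 10 genes), and no gene of these lists was at 0 throughout. Single genes did not all follow these 2 sums. Of choroid plexus, Ttr was lowest in replicate 1 (18.0, against 22.2 in replicate 4), Ecrg4 in replicate 2 and Kl in replicate 5. Of microglia, P2ry12 and C1qb were lowest in replicate 4 and Csf1r in replicate 7. The part of these lists in the members' values was not tested. Without replicate 5, 50 members were still lowest in replicate 4.

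**Figure D4:**
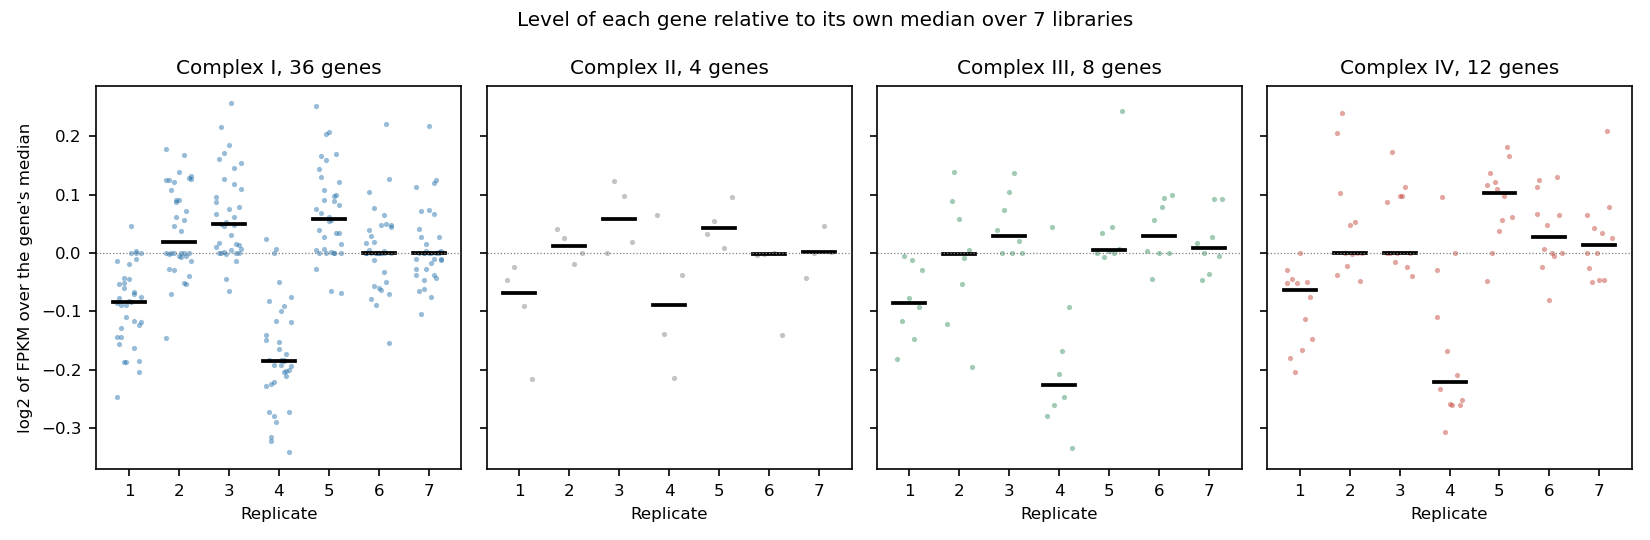
log2 of FPKM over the gene's own median (vertical axis) in each replicate, for the members of at least 1 FPKM other than minor isoforms, 1 panel per complex; dots are genes and black bars their medians. Replicate 4 lies lowest in each panel and replicate 1 next, while in complex II 1 gene, Sdha, is at its highest in replicate 4.

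By complex, 31 of 36 complex I members, 7 of 8 of complex III, 10 of 17 of complex IV and 2 of 4 of complex II were lowest in replicate 4. The median ratio of replicate 4 to the others was 0.873 in complex I (0.901 for core and 0.871 for accessory genes), 0.936 in complex II, 0.843 in complex III and 0.839 in complex IV. Uqcrb had the lowest ratio outside the minor isoforms, 0.767, followed by Ndufa7, an accessory subunit, at 0.782 and Ndufs8 at 0.784. Cox6a1 and 4 others stood at or above the others' median in replicate 4: Cox6a1 (1.08), Uqcrc1 (1.05), Sdha (1.05), Ndufa8 (1.02) and Ndufb8 (1.01). Cox4i1 (0.983) and Cox8a (0.951), the most abundant members, stood close to it and were lowest in replicate 1. So subunits of 1 complex did not all share the pattern: in complex IV, Cox6a1 was 1.08 times and Cox6c 0.807 times the others' median.

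Short genes as a class were lower in replicate 4, and the members are short. Their median length in the table was 754 bases, against 3693 for all genes of at least 1 FPKM, and 50 of the 65 lie in the shortest of 10 equal classes of gene length, up to 1322 bases. In that class the median gene stood at -0.18 on the log2 scale in replicate 4 and 47.4% of genes were lowest there, while in the longest class, from 9408 bases, the values were 0.07 and 8.46%. The 50 members in the shortest class stood at a median of -0.22, with 35 below the median of that class and 38 lowest in replicate 4. Among the members, those under 1000 bases stood at -0.23 (28 of 38 lowest in replicate 4), those from 1000 to under 2000 bases at -0.18 (18 of 21) and those of 2000 bases or more at -0.15 (4 of 6). Length and log2 ratio correlated with r = 0.36 and rho = 0.45 over the 65 members and with r = 0.31 and rho = 0.34 over all 12052 genes, as a description across genes.

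**Figure D5:**
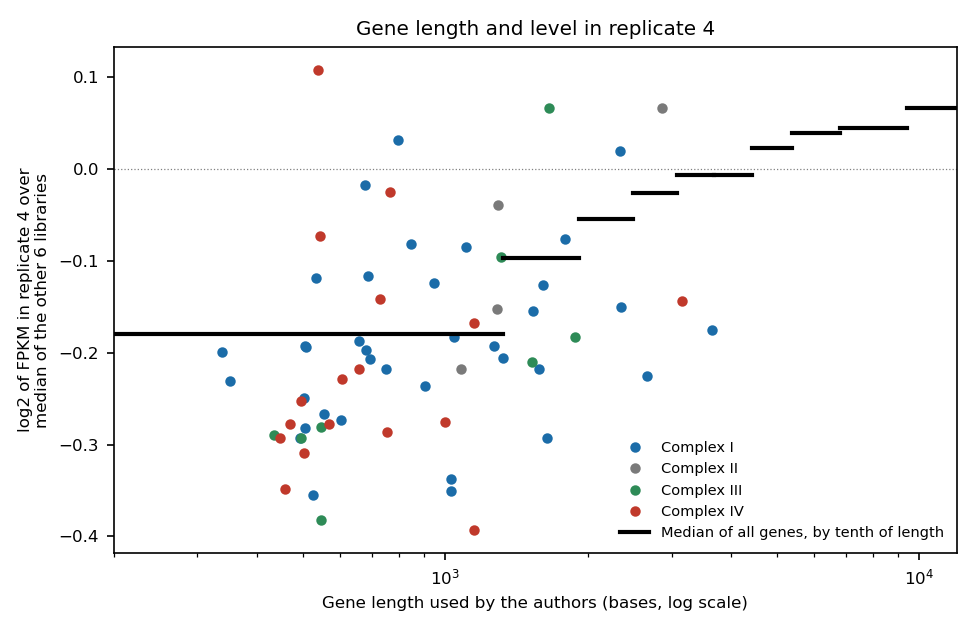
log2 of FPKM in replicate 4 over the median of the other 6 libraries (vertical axis) against the gene length used by the authors (log axis), for the 65 members of at least 1 FPKM, coloured by complex; black bars give the median of all genes in each of 10 length classes. The bars run from -0.18 in the shortest class to 0.07 in the longest, and 35 of the 50 members in the shortest class lie below its bar.

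Centring each library within 20 bins of gene length, an alternative chosen after seeing the data, reduced the members lowest in replicate 4 from 50 to 17 (26.2%, against 16.6% of all genes) and raised those lowest in replicate 1 from 12 to 27 (41.5%, against 9.75%). The median member then stood at -0.07 in replicate 4 and at -0.07 in replicate 1. The part of gene length in the pattern was not tested further. Totals also differed: all FPKM summed to 327826 in replicate 4 and to 339204 to 353622 elsewhere, and after rescaling to equal totals 39 members (60%) were lowest in replicate 4, against 10.5% of all genes, and 14 (21.5%) in replicate 1, against 7.25%.

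Other genes of oxidative phosphorylation were taken from lists set by function, with earlier results of these data known. The counts that follow stand beside 20.1% of all genes lowest in replicate 4, 9.06% lowest in replicate 1 and 21.1% highest in replicate 5. Of 18 complex V genes, which make ATP, 9 were lowest in replicate 4 and 9 in replicate 1, with a median ratio of 0.879 in replicate 4. Atp5b, which encodes the catalytic subunit, varied least (635, 642 and 690 FPKM) and Atp5md, which encodes a small membrane subunit, most (312, 381 and 455). Assembly factors of complex I were lowest in replicate 4 in 11 of 15 cases, among them Ndufaf2 (11.4 FPKM there and 13.1 to 19.3 elsewhere), and those of complex IV in 9 of 16, among them Cox18 (3.20 there and 4.42 to 5.18 elsewhere). For assembly factors of complexes II and III it was 4 of 10. The complex I factors had a median length of 2579 bases and stood at -0.19 on the log2 scale in replicate 4, while all genes of that length class stood at -0.03, with 21.2% lowest there. Of 15 electron carriers, coenzyme Q enzymes and subunits outside the name patterns, with a median length of 2281 bases and a median of -0.13 in replicate 4, 7 were lowest there, among them Cycs, the cytochrome c gene (28.8, 34.6 and 37.4). Of the 13 mitochondrially encoded genes, 8 were lowest in replicate 4 and 9 highest in replicate 5.

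Regulators of mitochondrial biogenesis are described by the same count. Of 12 regulators with a median of at least 1 FPKM, 0 were lowest in replicate 4, and their median ratio there was 1.01. Nrf1, which encodes the factor that binds the NRF1 motif, was lowest in replicate 5, with a median of 1.15 FPKM and 1.24 in replicate 4, its highest library. Ppargc1b, which encodes a coactivator of biogenesis, had 1.60, 1.90 and 2.40, and Polrmt, the mitochondrial RNA polymerase gene, 4.71, 5.04 and 6.27. Their median length was 5725 bases, and 11.4% of all genes in that length class were lowest in replicate 4, so a count of 0 is close to that background. Cytosolic ribosomal protein genes (median length 821 bases) were lowest in replicate 4 in 63 of 74 cases, with a median ratio of 0.865. The share was 20.1% over all genes and 47.4% in the shortest length class, which holds that median length.

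Some values may rest on reads that gene models share. In GENCODE M21, exons of 15 of the 67 members overlap those of another coding gene. The partner lies on the same strand for Ndufb8 and Ndufb9, on both strands for Ndufb2, and on the opposite strand for the others. Examples of the last are Cox6a2 and Itgad, Ndufa4l2 and Shmt2, Uqcrb and Gm10767, Ndufs3 and Kbtbd4, or Ndufa3 and Tfpt. Of these, Ndufa4l2 (34 to 58) and Cox6a2 (95 to 250) have few reads per library. The strand setting of the counting is not given in the sources used here, so reads of such partners cannot be told apart. Near-identical copies outside the name patterns were listed low: Ndufb4b at 1.86 to 3.23 FPKM, Ndufb4c at 1.07 to 1.56 and Ndufs6b at 1.38 to 2.62, against 119 to 139 for Ndufb4 and 72.0 to 94.2 for Ndufs6.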

How the data were processed

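Per the labels' protocols, the SMARTer chemistry was used for the libraries. The authors deposited FPKM for 27583 genes in 7 columns, a unit taken from the table's own name. Per the submitters' processing notes the build is mm10; aligner, counter and annotation: not given in the sources used here. Columns were matched to samples by library name.

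Low genes with equal reads gave the libraries' relative depth. In each of the 21500 genes above 0 in at least 4 libraries, the values came out as whole reads within 0.001, and in 99.98% a whole gene length within 0.01 bases followed. These reads were used for counting intervals (95%, exact Poisson), which cover counting error only. FPKM does not correct for composition or for how well short genes are recovered. The scripts were tested on simulated data.

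Members under a median of 1 FPKM enter only the isoform pairs and summed levels. The exact sign-flip test of isoform pairs used log2(FPKM + 1), which understates the change of low genes. The only other test was Dixon's test for 1 library far from the rest, applied to 69 results. A single complex I gene enters the counts and medians but is not reported individually here. Members and lists were chosen with earlier results of these data known.

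Named members are, by rule, the 2 highest, 2 lowest, 2 most variable and 1 least variable in each complex, all isoform pairs, the Sdh genes and the complex I core. In the other lists they are the 2 most and 1 least variable. Further genes were chosen after their values were seen. Promoters came from RefSeq (GRCm38.p6) and gene positions and transcript lengths from GENCODE M21 on the same build. Alternatives were 3 rescalings, a pseudocount of 0.1, other filters, leaving out each library, and 3 settings (GENCODE lengths, centring by length, ratios without replicate 5) chosen after seeing the data. Computation used scipy 1.17.1, numpy 2.4.6 and pandas 2.3.3 in Python 3.11.15, with plots by matplotlib 3.10.9.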

Additional observations from a re-analysis of the deposited data

Results flagged for a closer look

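Of 69 results examined, the 65 members and the medians of the 4 complexes, 2 had 1 library far from the other 6. Uqcr11, a small complex III subunit gene, had 165 FPKM in replicate 4 and 197 to 218 elsewhere, a gap of 0.604 of its range. Ndufb7, a complex I subunit gene, had 124 FPKM in replicate 3 and 96.7 to 108 elsewhere, a gap of 0.591 of its range. Both gaps exceed the 95% critical value of Dixon's test. Chance alone gives about 1 such gap in 20 groups, and 2 of 69 is below that rate.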

How the results depend on the processing

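No paired analysis was possible because the labels give 1 group. The 8 isoform pairs kept their direction and an adjusted p under 0.05 by the exact sign-flip test under a pseudocount of 0.1, both scalings tried for them and each library left out. Complex IV depends on the filter, since its minor isoforms enter or leave. With no filter its median was 147 FPKM, 1.53 times complex I and 1.03 times complex III, above complex III in 5 of 7 libraries. With a minimum of 5 these were 388 FPKM, 3.89 times and 2.57 times, and 1 member in place of 5, Cox6a2, varied by 1.5 times. With GENCODE transcript lengths the medians of complexes III and IV were 180 and 202 FPKM, and ratios to complex I were 0.882 for complex II, 1.73 for complex III and 1.95 for complex IV. The library that was lowest in most members was replicate 4 under each rescaling and filter, with 45 to 53 members when 1 library was left out; the 45 were lowest in replicate 1 once replicate 4 was gone. After centring by gene length it was replicate 1, with 27 members. The median SD moved by less than 1.5 times under each alternative. Depth limits only the minor isoforms, Cox7b2 and Cox8b above all, with 3 to 28 reads.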
